A study of Mus musculus with 8 samples.

Results

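Replication-dependent histone genes are the short, mostly intron-free genes that supply the core histones H2A, H2B, H3 and H4 and the linker histone H1 while DNA is being copied. They were taken here as the protein-coding genes of the GENCODE M21 mouse annotation (mm10) whose symbols begin with Hist1h, Hist2h, Hist3h or Hist4h, which gave 67 of 21951 protein-coding genes. By type they were 6 H1, 18 H2A, 18 H2B, 12 H3 and 13 H4 genes. The Hist1 cluster on chromosome 13 held 54 of them, in a first block of 23 genes (chr13:21715763-22043676) and a second block of 31 genes (chr13:23531050-23934851). The Hist2 cluster on chromosome 3 held 10, Hist3 on chromosome 11 held 2, and Hist4 on chromosome 6 held 1.

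The study mapped 2 subunits of SWI/SNF chromatin remodelers, PBRM1 (also called BAF180, particular to the PBAF form of the complex) and BRG1 (an ATPase found in several forms), by ChIC-Seq, in which an antibody carries a nuclease to its target and the released fragments are sequenced. All libraries came from wild-type mice on day 4 of pseudopregnancy per the extract protocol, while the treatment label speaks of mating for pregnancy. Animals were 8 to 12 weeks old, 5 to 10 uterine horns were pooled, and 50000 primary uterine stromal cells, cultured for some hours and fixed for 5 minutes, went into a library. There were 3 replicates per antibody, and the files held 8 peak lists, 1 per replicate and 1 pooled list per antibody. The labels do not say that replicates came from separate pools of animals, so their spread may be technical. The 2 IgG libraries were not analysed here, and no control entered the peak calls.

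Histone mRNAs of this class are not polyadenylated. Each ends in a conserved stem-loop that SLBP binds, and the 3′ end is cut by a machinery that includes the U7 snRNP. Transcription takes place in histone locus bodies, nuclear structures built around NPAT, and is activated on entry to S phase by cyclin E and CDK2. Many H2A and H2B genes lie head to head and share the DNA between their starts as a promoter.

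The sequences of such shared promoters are shown because peaks described later cover most of them. Capitals mark 4 short strings searched on both strands, CCAAT (the box of that name), TATAAA (resembling a TATA box), ATTTGCAT (the octamer bound by OCT1) and TTTCGCGC (an E2F-like string), none of which contains another. Sequence is from the GRCm38.p6 assembly, which has the mm10 chromosomes, and leaves out any base of an annotated transcript of these genes. Hist2h2ac/Hist2h2be is chr3:96220881-96221118, Hist1h2ae/Hist1h2bg is chr13:23571221-23571395 and Hist1h2ag/Hist1h2bj is chr13:22042950-22043197, all on the plus strand.
Hist2h2ac/Hist2h2be: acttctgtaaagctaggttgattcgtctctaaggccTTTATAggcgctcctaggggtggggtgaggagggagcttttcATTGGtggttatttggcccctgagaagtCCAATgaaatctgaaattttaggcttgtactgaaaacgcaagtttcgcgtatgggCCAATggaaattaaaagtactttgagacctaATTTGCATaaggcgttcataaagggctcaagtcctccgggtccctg
Hist1h2ae/Hist1h2bg: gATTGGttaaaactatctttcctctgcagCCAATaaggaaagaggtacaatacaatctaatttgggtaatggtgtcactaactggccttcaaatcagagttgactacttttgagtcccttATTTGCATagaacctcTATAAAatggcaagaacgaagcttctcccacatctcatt
Hist1h2ag/Hist1h2bj: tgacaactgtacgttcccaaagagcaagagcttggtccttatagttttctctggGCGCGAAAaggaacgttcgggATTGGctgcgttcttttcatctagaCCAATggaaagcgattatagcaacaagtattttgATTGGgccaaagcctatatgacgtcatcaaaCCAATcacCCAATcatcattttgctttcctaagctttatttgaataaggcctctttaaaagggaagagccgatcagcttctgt

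RefSeq promoters (250 bases before to 50 after the start) were matched for 62 of the 67 genes. CCAAT was found in 85.5% of them and in 37.4% of all 32851 promoters. It stood in every matched H1, H2A, H2B and H3 promoter but in 3 of 12 H4 promoters. ATTTGCAT was found in 7 of 18 H2A and 6 of 16 H2B promoters and in no H1, H3 or H4 promoter, against 1.74% of all promoters. TTTCGCGC followed the same division, with 5 H2A and 4 H2B promoters and none of the other types, against 0.323% of all promoters. TATAAA was spread over all 5 types, at 56.5% of histone promoters and 13.6% of all. The median GC content of the histone promoters was 45.3%, below the 52.7% of all promoters. These matches describe letters in a window and do not show that a factor was bound.

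H4 promoters are printed separately because 9 of 12 lacked CCAAT and none carried ATTTGCAT or TTTCGCGC, although 8 of 12 carried TATAAA. Their pooled PBRM1 fold enrichments ran from 4.31 to 11.25, a spread not particular to H4, since H3 genes ran from 3.10 to 11.37. The 150 bases before the outermost annotated start are given in the direction of transcription, all on the minus strand except Hist1h4b. Hist4h4 (chr6:136804432-136804581) carried one of the highest H4 fold enrichments for PBRM1. Hist1h4i (chr13:22041363-22041512) and Hist1h4b (chr13:23756787-23756936) differed most between the antibodies by percentile within each peak list, a measure described further on.
Hist4h4: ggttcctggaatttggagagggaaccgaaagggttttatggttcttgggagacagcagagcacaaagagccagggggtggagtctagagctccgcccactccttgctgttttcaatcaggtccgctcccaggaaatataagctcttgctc
Hist1h4i: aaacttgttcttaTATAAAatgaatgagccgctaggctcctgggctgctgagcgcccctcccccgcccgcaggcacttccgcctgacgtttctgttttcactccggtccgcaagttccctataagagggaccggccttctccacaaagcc
Hist1h4b: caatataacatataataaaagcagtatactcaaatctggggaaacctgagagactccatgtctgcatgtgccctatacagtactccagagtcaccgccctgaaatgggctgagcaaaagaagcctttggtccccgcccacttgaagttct

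The stem-loop checks that the symbols name genes of this class. A stem-loop of this kind was found in 65 of the 67 genes when the whole gene and 150 bases after it were searched, the exceptions being Hist1h2an and Hist2h2be. In a window of 1000 bases before to 150 after the annotated end it was found in 52 of 67 histone genes (77.6%) and in 3 of 21871 other protein-coding genes (0.0137%). The commonest forms are shown with the stem arms in capitals.
Form in 40 genes: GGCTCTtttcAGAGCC
Form in 9 genes: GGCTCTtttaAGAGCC
Form in 8 genes: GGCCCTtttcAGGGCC

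Replicates held 8868777, 12770092 and 16505239 fragments for PBRM1 and 14595089, 11506964 and 11740786 for BRG1, and the pooled lists 38144108 and 37842839. BRG1 replicate lists were longer (36656 to 40610 peaks) than PBRM1 lists (21912 to 26363), so a missing PBRM1 peak carries less weight than a missing BRG1 peak. As a check of the cell type, 5 of 5 stromal markers (Des, Vim, Pdgfra, Hoxa10 and Hand2) had a promoter peak in all 6 replicates. None of 4 epithelial markers (Cdh1, Krt8, Krt18, Epcam) had one in all 6, but Cdh1 and Epcam had one in all 3 BRG1 replicates and all 4 had one in both pooled lists. The median pooled fold enrichment of the epithelial markers was 4.62 for PBRM1 and 6.14 for BRG1, not below the 4.11 and 5.83 of the stromal markers. Neither endothelial marker (Cdh5, Pecam1) had a peak in all 6 replicates or in all 3 of either antibody. The leukocyte marker Ptprc had none in any list. A peak marks remodeler signal and not expression, and the peak heights did not separate stromal from epithelial markers; a part of epithelial cells in the results was not tested.

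Most histone genes had PBRM1 and BRG1 at the promoter. A peak overlapping the 1 kb on either side of a transcription start was found at 56 of 67 genes in the pooled PBRM1 list, against 67.0% of all protein-coding genes, and at 58 of 67 in the pooled BRG1 list, against 70.3%. All 3 PBRM1 replicates had a peak at 48 genes (51.0% of all genes) and all 3 BRG1 replicates at 53 (60.0% of all genes). The 48 genes with all PBRM1 replicates also had all BRG1 replicates, and the share of all genes with a peak in all 6 lists was 50.7%. No list had a peak at 9 histone genes, or 13.4%, where 28.4% of all genes had none. Single lists ranged from 50 to 53 genes for PBRM1 and from 54 to 57 for BRG1.

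**Figure D1:**
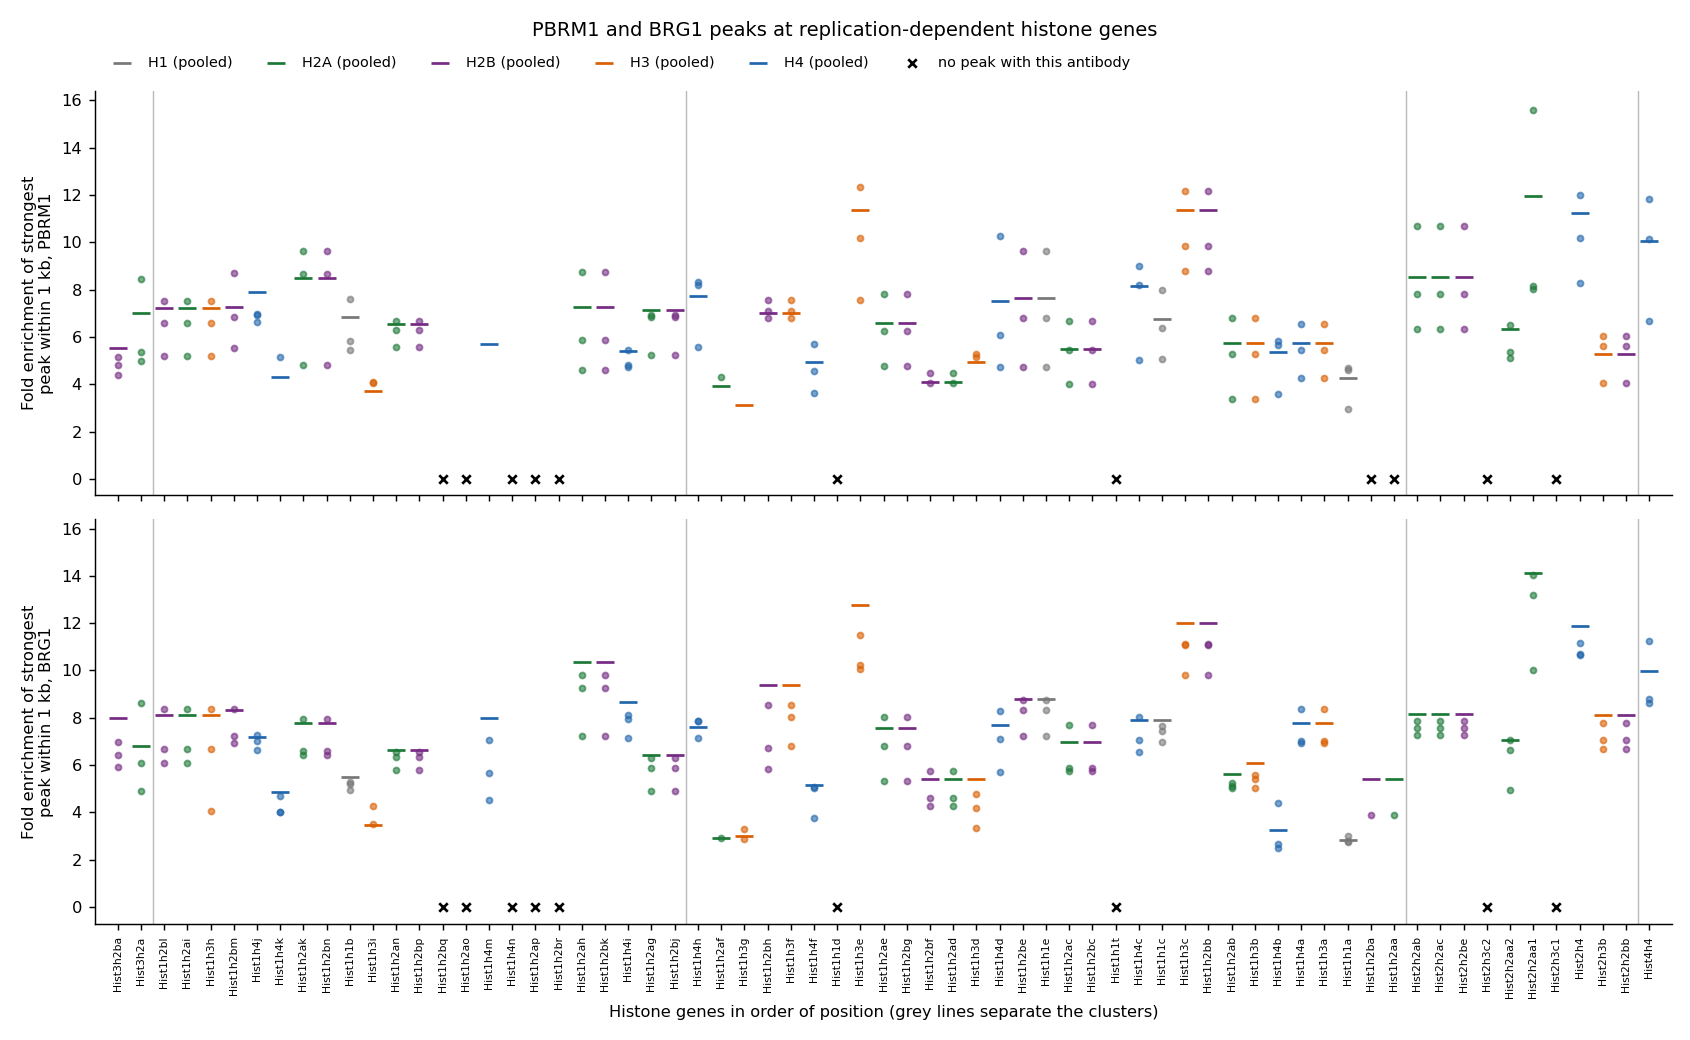
Fold enrichment of the strongest peak within 1 kb of a start, for each of the 67 histone genes in order of position, with PBRM1 above and BRG1 below. Points are the 3 replicates and horizontal bars the pooled list, colours give the histone type, and crosses mark the 11 genes with no PBRM1 peak and the 9 with no BRG1 peak. Hist2h2aa1 stands highest, at 11.9 for pooled PBRM1 and 14.1 for pooled BRG1.

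The peaks themselves were close in height to those of other promoters in pooled PBRM1 and lower for BRG1. Fold enrichment is the number of fragments over the summit divided by the local background, after 1 was added to each. The histone genes' median was 6.91 in the pooled PBRM1 list, beside 6.93 for all genes with a peak, and 7.78 in the pooled BRG1 list, beside 8.81. In the PBRM1 replicates the medians were 6.95, 6.69 and 5.06 for histone genes and 7.54, 6.81 and 5.75 for all genes. In the BRG1 replicates they were 7.10, 6.67 and 6.70 for histone genes and 8.13, 8.18 and 8.27 for all genes. The histone genes' median thus lay below that of all genes in every list, by little in pooled PBRM1 and by 1 or more in each BRG1 replicate.

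Fold enrichment depends on its denominator, which was high in these clusters. The local background implied by the deposited values had a median of 11.1 fragments at histone genes and 7.83 at all genes in pooled PBRM1, and 12.0 against 9.28 in pooled BRG1. The summit itself held a median of 75 fragments at histone genes and 64 at all genes for PBRM1, and 88.5 against 95 for BRG1. Pooled PBRM1 summits were therefore taller at histone genes in fragments but not in fold enrichment. The clusters were dense in peaks, with a median of 4 summits within 10 kb of a histone start in both pooled lists, against 1 for all genes in PBRM1 and 2 in BRG1. Whether neighbouring peaks raised the denominator was not tested.

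Histone peaks were often shared between genes, and they were wider than those of other genes in the pooled lists but not in most replicates. Their median width was 1000 bases in pooled PBRM1 and 956 in pooled BRG1, against 780 and 797 for all genes. In the PBRM1 replicates it was 478, 491 and 539 bases, against 553, 594 and 525 for all genes. In the BRG1 replicates it was 741, 488 and 512 bases, against 643, 593 and 578. The 56 genes with a pooled PBRM1 peak rested on 39 distinct peaks and the 58 with a pooled BRG1 peak on 40, and in each list 15 peaks served 2 or 3 genes. Genes that share a peak share its value, and they are not independent measurements.

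By type, H2A and H2B genes are the partners of the shared promoters. In pooled PBRM1, 15 of 18 H2A and 15 of 18 H2B genes had a peak, with medians of 6.99 and 7.14, and in pooled BRG1 16 of each, with medians of 7.02 and 8.03. H3 genes had a pooled peak in 10 of 12 for both antibodies, with medians of 5.73 for PBRM1 and 7.94 for BRG1. H4 genes had one in 12 of 13 for both, with medians of 6.63 and 7.74. All 12 also had one in every BRG1 replicate, against 60.0% of all genes. Linker H1 genes had one in 4 of 6, with medians of 6.80 and 6.71. Over all genes the shares were 67.0% for pooled PBRM1 and 70.3% for pooled BRG1. These medians use the strongest peak within 1 kb, which for some H3 genes lay nearer to a neighbour. In pooled PBRM1 the peak over the start was 2.70 at Hist1h3a, 3.32 at Hist1h3b and 3.21 at Hist1h3h. The values counted for them were 5.73, 5.73 and 7.22. At other H3 genes, such as Hist1h3e, the peak over the start was the one counted. Averaged over the replicates' own medians, PBRM1 ran from 6.00 ± 1.04 (SD, n = 3) for H1 to 6.43 ± 1.47 for H2B, and BRG1 from 6.22 ± 0.119 for H1 to 6.997 ± 0.102 for H4. The third PBRM1 replicate was the lowest for every type, so these SDs hold a shift in level that the types share, and differences between types were not tested.

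Within each type, genes are taken in order of the pooled PBRM1 value. The first H2A gene in that order was Hist2h2aa1, on chromosome 3. Its fold enrichment was 8.03, 15.6 and 8.15 in the PBRM1 replicates and 10.0, 14.0 and 13.2 in the BRG1 replicates. The second PBRM1 replicate stood far above the others, the antibodies overlapped, and in the first PBRM1 replicate Hist2h2ab, at 10.7, was higher. Its near-copy Hist2h2aa2 had 6.51, 5.36 and 5.12 for PBRM1 and 6.62, 4.95 and 7.06 for BRG1. Both peaks lay just upstream of the gene and stopped short of its start. The pooled PBRM1 peak of Hist2h2aa1 (chr3:96245005-96245441) ended 56 bases before the start, and that of Hist2h2aa2 (chr3:96240419-96240701) ended 143 bases before it. In the windows around these starts 64.2% and 70.3% of the sequence was repeated elsewhere in the genome, a measure described further on.

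The next H2A gene in that order, Hist2h2ab, shared 1 peak with Hist2h2ac and Hist2h2be. At 1844 bases in pooled PBRM1 (chr3:96219755-96221598) it was the widest peak of any histone gene in that list, and it covered all 3 starts. Its fold enrichment was 10.7, 7.80 and 6.34 for PBRM1 and 7.87, 7.29 and 7.58 for BRG1. The BRG1 replicates lay inside the range of the PBRM1 replicates.

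Among H2B genes the first was Hist1h2bb, whose peak was also the strongest near the H3 gene Hist1h3c. The values were 12.2, 9.85 and 8.77 for PBRM1 and 11.1, 9.80 and 11.1 for BRG1. Counted from the start in the direction of transcription, the pooled PBRM1 summit lay at position -352 for Hist1h2bb and -780 for Hist1h3c. At the start of Hist1h3c itself a second and lower peak was found, 39 bases away in pooled PBRM1 with a fold enrichment of 4.66, and over the start in pooled BRG1 with 4.50. The high value therefore belongs to the DNA between the genes.

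The other leading H3 gene, Hist1h3e, had a peak of its own over its start (chr13:23562011-23562659 in pooled PBRM1). Its fold enrichment was 12.3, 10.2 and 7.56 for PBRM1 and 10.1, 10.3 and 11.5 for BRG1, overlapping between antibodies. In contrast, Hist1h3g had no peak in any PBRM1 replicate, and its only PBRM1 value was 3.10 in the pooled list.

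Among H4 genes, Hist2h4 had 10.2, 12.0 and 8.27 for PBRM1 and 10.7, 10.7 and 11.2 for BRG1. Hist4h4, the single Hist4 gene, had 11.8, 10.1 and 6.68 for PBRM1 and 8.80, 8.61 and 11.2 for BRG1. In both genes the antibodies overlapped, and the third PBRM1 replicate was the lowest, as it was in the medians over all genes.

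Of the linker genes, Hist1h1e had 9.64, 6.79 and 4.74 for PBRM1 and 7.25, 8.76 and 8.33 for BRG1. The same peak was counted for Hist1h2be, as the strongest within 1 kb of its GENCODE starts, although it covered none of them. The pooled peaks nearest to those starts were lower. They had a fold enrichment of 3.18 for PBRM1, over a start, and 2.92 for BRG1, 4 bases away. Hist1h1b had 7.61, 5.43 and 5.81 for PBRM1 and 5.30, 5.19 and 4.95 for BRG1, so that every PBRM1 value exceeded every BRG1 value. Hist1h1a was among the weakest genes with peaks in all lists, at 4.60, 4.68 and 2.96 for PBRM1 and 2.75, 3.01 and 2.80 for BRG1.

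The small clusters outside chromosome 13 were covered as well. Of the 10 Hist2 genes, 8 had a peak in all 6 replicates, as did both Hist3 genes and the Hist4 gene. Over all genes that share was 50.7%. Hist3h2ba had 4.41, 5.14 and 4.80 for PBRM1 and 6.97, 6.42 and 5.90 for BRG1, without overlap. Hist3h2a had 8.45, 5.00 and 5.35 for PBRM1 and 6.08, 4.90 and 8.63 for BRG1, which overlapped. Hist2h3b and Hist2h2bb shared a peak of 5.62, 6.05 and 4.07 for PBRM1 and 7.08, 7.80 and 6.70 for BRG1, again without overlap. Fold enrichment over all genes was itself higher for BRG1, with replicate medians of 8.13 to 8.27 against 5.75 to 7.54 for PBRM1. Ranked among the genes with a peak in all 6 replicates, as described further on, the antibodies overlapped at Hist3h2ba, Hist2h3b and Hist2h2bb.

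There were 13 divergent pairs, with 175 to 659 bases between their starts and a median of 267. Both genes of a pair had the same strongest peak in 10 pairs in pooled PBRM1 and in 11 in pooled BRG1, and that peak covered both starts in 9 pairs in each list. The summit did not lie between the starts in any of the 10 PBRM1 pairs and did so in 1 of the 11 BRG1 pairs, Hist1h2an/Hist1h2bp. Over the replicates it lay between the starts in 0 of 9, 0 of 10 and 0 of 10 pairs for PBRM1 and in 0 of 9, 1 of 10 and 2 of 10 for BRG1. Among 215 other protein-coding divergent pairs with the same range of spacing, 191 shared a pooled PBRM1 peak and 43.5% of these had the summit between the starts, and 193 shared a pooled BRG1 peak with 60.1% between. The median distance from the summit to the nearer start was 80.5 bases in histone pairs and 121 in the others for PBRM1, and 85 and 78 for BRG1, so the summits of most histone pairs lay close to a start but outside the stretch between the starts. The annotated starts of several of these genes differ between GENCODE and RefSeq, and the effect of that on summit positions was not tested.

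**Figure D2:**
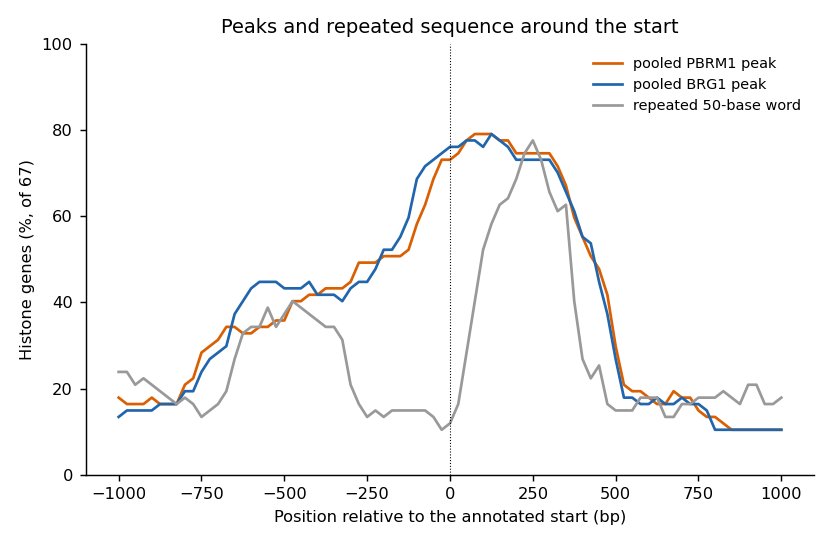
Share of the 67 histone genes (vertical axis, %) covered at each position around the annotated start (horizontal axis, bp, positive into the gene) by a pooled PBRM1 peak, by a pooled BRG1 peak, or by a 50-base word that occurs elsewhere in the genome. Peak cover was 73.1% for PBRM1 and 76.1% for BRG1 at the start, where repeated words stood at 11.9%. Repeated words rose to 52.2% at 100 bases into the gene and to 77.6% at 250 bases. Peak cover at 250 bases was 74.6% for PBRM1 and 73.1% for BRG1, so the peaks also lay over repeated sequence.

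Coverage by position showed the same placement. At the start 73.1% of the 67 genes lay under a pooled PBRM1 peak and 76.1% under a pooled BRG1 peak, and at 100 bases into the gene 79.1% and 76.1% did. At 500 bases into the gene the shares had dropped to 29.9% and 26.9%. The strongest peak itself covered the 5′-most start in 45 of the 56 genes with a pooled PBRM1 peak (80.4%, beside 69.8% for all genes) and in 47 of 58 for BRG1 (81.0%, beside 71.9%). In single replicates the histone shares were 56.0% to 75.9% and those of all genes 63.0% to 69.4%, and the histone share was the lower one in 5 of 6 replicates, BRG1 replicate 1 being the exception.

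The 9 genes with no peak in any list fell into 3 sets. The first is a duplicated stretch of the Hist1 cluster holding Hist1h2bq, Hist1h2ao, Hist1h4n, Hist1h2ap and Hist1h2br. The second is the H3 pair Hist2h3c1 and Hist2h3c2. The third is the pair of linker genes Hist1h1d and Hist1h1t. For each gene the share of 50-base words within 500 bases of the start that occur again in the genome was counted, because the authors removed read pairs of low mapping quality and reads from exact repeats map with low quality.

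That share separated the first and second sets from most other histone genes. It was 94.8% or more in the 7 genes of those sets and 0% in Hist1h1d and Hist1h1t. Around the RefSeq start of Hist1h1d, which lies elsewhere as described further on, it was 16.6%. Among the 48 genes with a peak in all 8 lists its median was 26.7% and its highest value 70.3%, at Hist2h2aa2. In 10 genes with a peak in 1 to 7 lists its median was 30.3%, and across the 9 genes without a peak 95.2%. Regulators of histone genes, histone chaperones and replication-independent histones had medians of 0%, 0% and 0.420%. Whether reads from these copies were lost in mapping was not tested, and at these genes a missing peak cannot be told apart from unmappable sequence.

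**Figure D3:**
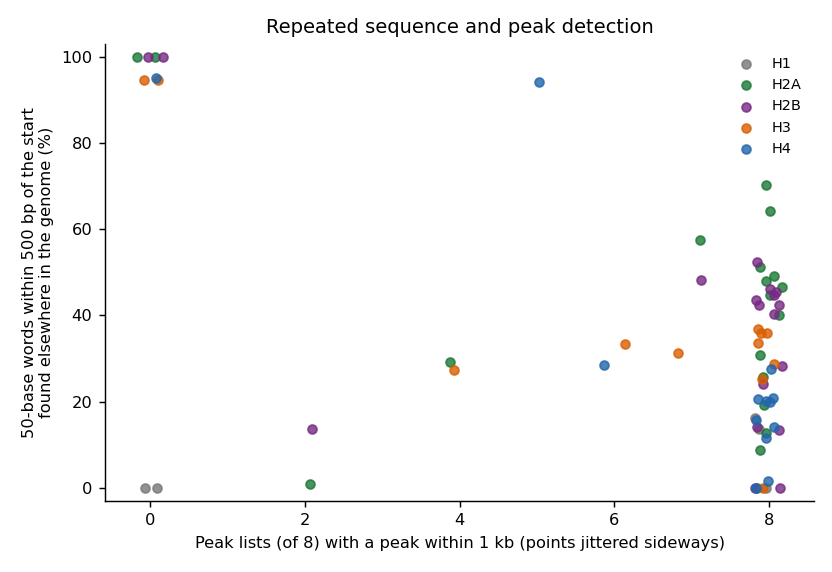
Share of 50-base words within 500 bp of the start that are found elsewhere in the genome (vertical axis, %) against the number of the 8 peak lists with a peak within 1 kb (horizontal axis), 1 point per histone gene, coloured by type. Of the 9 genes at 0 lists, 7 lie at 94.8% or more and 2 H1 genes lie at 0%. Starts are those of GENCODE, and around its RefSeq start Hist1h1d had 16.6%.

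The duplicated stretch is shown because both of its divergent pairs have the same promoter in opposite orientation. The sequence of Hist1h2bq/Hist1h2ao (chr13:21810200-21810366, plus strand) was found without a difference over 167 bases in that of Hist1h2br/Hist1h2ap (chr13:21833576-21833742, minus strand).
Both pairs: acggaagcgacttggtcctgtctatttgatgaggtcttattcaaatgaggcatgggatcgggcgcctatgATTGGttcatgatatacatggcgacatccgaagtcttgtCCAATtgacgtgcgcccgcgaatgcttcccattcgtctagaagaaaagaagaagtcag
In windows of 500 bases on either side of the starts, Hist1h2bq and Hist1h2br shared an identical stretch of 999 bases, Hist1h2ao and Hist1h2ap of 971, Hist1h4m and Hist1h4n of 535, and Hist2h3c1 and Hist2h3c2 of 504. Hist1h4m, with 94.2% repeated words, had no peak in the PBRM1 replicates and 7.06, 4.54 and 5.68 in the BRG1 replicates. Its pooled peaks began 468 bases (PBRM1) and 417 bases (BRG1) from the start, beyond the gene's end.

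The 2 linker genes differed from these. The GENCODE start of Hist1h1d (chr13:23553262-23560686) lies 1770 bases from the RefSeq start. Around the RefSeq start there were peaks in 5 of 6 replicates, at 7.59 and 5.77 for PBRM1 replicates 1 and 2, none for replicate 3, and 6.86, 5.85 and 7.004 for BRG1. With the RefSeq start Hist1h1d therefore had BRG1 in every replicate. Hist1h1t, the testis H1, had no repeated words, and its nearest pooled peaks were 2206 bases (PBRM1) and 2215 bases (BRG1) from its start. The other testis variants, Hist1h2ba and Hist1h2aa, form a divergent pair and had no PBRM1 peak, with a shared BRG1 peak of 3.90 in replicate 3 and 5.42 in the pooled list only. The 3 testis variants thus had a peak in at most 1 replicate. There were 49 other protein-coding genes with a start between those of the first and last Hist1 genes, within or between the blocks. Of these, 40 had no peak in any list, against 28.4% of all genes. A peak in all 6 replicates was found at 6 of the 49, against 50.7% of all genes. Most of the 40 were vomeronasal receptor genes of the Vmn1r family.

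The comparison of the antibodies depended on how peaks were ranked. Each peak was first given its percentile of fold enrichment within its own list. The BRG1 lists are longer, and over all genes this percentile was higher for BRG1 (median 84.2, against 74.7 for PBRM1), so a difference in it holds the length of the list as well as the antibody. Of the 48 genes with a peak in all 6 replicates, 6 had every BRG1 percentile above every PBRM1 percentile, against 32.5% of 11128 genes with peaks in all 6. The reverse held for 7, against 3.69% of those genes. The median difference, BRG1 minus PBRM1, was 0.378 percentile points at histone genes (medians 71.4 and 67.2) and 8.02 over all genes.

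Ranking the same 11128 genes in every replicate makes the ranked lists equally long, an alternative chosen after seeing the data. The choice of genes still depends on the shorter PBRM1 lists. All PBRM1 replicates had a peak at 11196 genes and all BRG1 replicates at 13181. Of the 53 histone genes with a peak in all BRG1 replicates, 48 were ranked. The others lacked a PBRM1 peak in at least 1 replicate and could not be compared. By this rank none of the 48 had every BRG1 value above every PBRM1 value, against 11.7% of the 11128 genes. Every PBRM1 value was higher at 17 of the 48 (35.4%), against 14.0%. The median difference, BRG1 minus PBRM1, was -13.9 at histone genes (medians 24.9 and 37.8) and -0.678 over all genes. The 17 genes rest on 12 distinct pooled PBRM1 peaks and include all 7 found by percentile within a list. None of the 6 genes with higher BRG1 percentiles within a list kept that call.

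**Figure D4:**
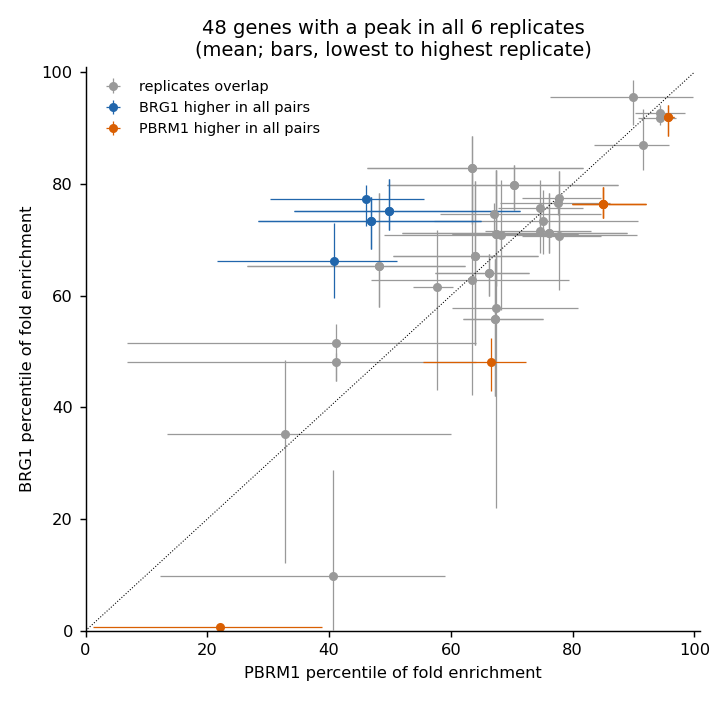
Mean percentile of fold enrichment within a whole peak list for PBRM1 (horizontal axis) and BRG1 (vertical axis) at the 48 histone genes with a peak in all 6 replicates, with bars from the lowest to the highest of 3 replicates and a dotted line of equality. Blue marks the 6 genes with every BRG1 value higher and orange the 7 with every PBRM1 value higher; genes that share a peak overlie each other, and the longer BRG1 lists shift points upward.

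Of the genes with higher BRG1 percentiles within a list, Hist1h4i had the largest difference. Its percentiles were 30.3, 55.6 and 52.4 for PBRM1 and 79.9, 79.8 and 72.5 for BRG1. The groups did not overlap, and the means were 46.1 ± 13.7 and 77.4 ± 4.26 (SD, n = 3 each), a difference of 31.3 with p = 0.1 in a two-sided exact permutation test. That is the smallest p that 3 against 3 replicates allow, and the gene was picked for this difference, so the p adds no support. Ranked among the same 11128 genes, Hist1h4i had 4.75, 18.3 and 25.2 for PBRM1 and 36.0, 38.9 and 24.3 for BRG1. These overlapped, with a difference of 17.0. Hist2h2bb and Hist2h3b, on 1 shared peak, came next within lists, with 47.4, 64.9 and 28.4 for PBRM1 and 74.0, 77.6 and 68.4 for BRG1. The others were Hist3h2ba, and Hist1h4a with Hist1h3a on 1 peak, with differences of 25.5 and 25.2.

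Genes ranked higher for PBRM1 by both measures included 2 linker genes. Hist1h1a had percentiles within a list of 26.3, 38.8 and 1.17 for PBRM1 and 0.630, 1.01 and 0.416 for BRG1. That placed it among the weakest of all BRG1 peaks. Among the same 11128 genes Hist1h1a had 3.87, 7.76 and 0.386 for PBRM1 and 0.036 in each BRG1 replicate. Both antibodies thus ranked it near the bottom, with a difference of -3.97, and on fold enrichment itself they overlapped. Hist1h1b had percentiles within a list of 72.3, 55.4 and 72.3 for PBRM1 and 52.5, 48.9 and 42.9 for BRG1. Its difference among the same genes was -31.8. The largest mean difference within lists was at Hist1h4b, with 50.7, 59.1 and 12.3 for PBRM1 and 0.186, 28.9 and 0.243 for BRG1, which overlapped. Among the same 11128 genes it had 15.98, 21.7 and 3.41 for PBRM1 and 0.0180, 1.65 and 0.0270 for BRG1, without overlap.

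The remaining genes of the 7 were Hist2h2ab, Hist2h2ac and Hist2h2be on their single wide peak, and Hist1h2bb with Hist1h3c, with differences within lists of -8.72 and -3.83. Among the same 11128 genes the wide peak had the largest difference of the 48 genes, with 83.2, 60.5 and 60.9 for PBRM1 and 35.1, 27.2 and 29.8 for BRG1. Its means were 68.2 ± 13.02 and 30.7 ± 4.04 (SD, n = 3 each), and it was singled out after its values were seen. On fold enrichment itself only 1 gene had every PBRM1 value above every BRG1 value, and when the peak had to cover the start there was none. Shares over all genes were not computed for these settings.

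Genes that act on histone genes and histones were read in the same way. Of 18 listed regulators 17 matched a symbol, the other being a misspelling of Sympk, which was left unread. All 17 had a promoter peak in all 6 replicates, against 50.7% of all genes. Their pooled medians were 9.07 for PBRM1 and 11.2 for BRG1. The highest PBRM1 values were at Npat, the histone locus body scaffold, with 13.9, 13.5 and 10.7 for PBRM1 and 14.6, 13.9 and 16.1 for BRG1, and at Zfp473, a partner of the U7 snRNP, with 12.3 and 13.7 in the pooled lists. The lowest PBRM1 values were at Srrt, which acts with the cap-binding complex, with 4.66 and 7.42, and at the cell-cycle factor E2f1, with 4.89 and 7.51. Slbp, named here for its role and after its values were seen, had 12.1, 9.35 and 8.76 for PBRM1 and 9.34, 8.46 and 8.66 for BRG1.

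All 16 histone chaperones had a promoter peak in all 6 replicates, against 50.7% of all genes, with pooled medians of 8.10 and 11.7. By pooled PBRM1 value, Npm1 (15.0 for PBRM1 and 16.7 for BRG1) and Asf1b (11.9 and 14.4) were highest, and Chaf1a, the large subunit of the CAF-1 chaperone (5.07 and 7.27), and Atrx (5.57 and 6.59) were lowest. For BRG1 the highest value was that of Nap1l1 (17.1). Replication-independent histones, which are made outside S phase as well, had peaks in all 6 replicates at 10 of 14 genes, beside the same 50.7%. Their pooled medians were 6.32 and 7.07. By pooled PBRM1 value, H2afx (10.4 and 9.28) and H2afv (10.2 and 12.1) were highest, and H2afj (3.95 and 4.18) and H1f0 (4.30 and 5.19) were lowest. The germ cell linker genes H1foo, H1fnt and Hils1 had no PBRM1 peak in any list. H1foo and H1fnt had the lowest pooled BRG1 values (3.10 and 3.71), and Hils1 had no BRG1 peak either. None of these lists was tested against the histone genes.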

How the data were processed

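PBRM1 and BRG1 were profiled by ChIC-Seq in uterine stromal cells, 3 replicates each. Per the labels and the study's methods, the authors trimmed reads with cutadapt, aligned them with Bowtie2 to GRCm38, discarded poorly mapped read pairs, removed duplicate reads, and used MACS 2.2.7.1 as the peak caller. Per the file headers, peaks were called on paired fragments without a control, at a q-value cutoff of 0.05 with a regional background of 10000 bp, and MACS was set to keep every fragment it was given. The deposited lists give for each peak its position, a pileup signal at the summit, a fold enrichment ratio and the −log10 of the p- and q-value; the pooled lists are the authors' own merge of replicates. No column was left unmapped.

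The lists were joined to GENCODE M21 transcript starts; a gene had a promoter peak where a peak overlapped the 1000 bp on either side of any start, and the peak with the highest fold enrichment was kept. The implied local background was the pileup plus 1, divided by fold enrichment, minus 1; its lowest value was 3.02 in pooled PBRM1, where fragments times fragment size over genome size gives 3.02. Percentiles were taken within each list and, as an alternative added after seeing the data, among the genes with a peak in all 6 replicates. Antibodies were called different where all replicates of one exceeded all of the other, and 1 gene was tested by an exact permutation test. Repeated words were 50-base words, on either strand, found more than once in GRCm38.p6. The join was tested on simulated data (507 of 507 planted peaks recovered over 1000 genes, 0 false). Named genes were the 2 members of each type with the highest pooled PBRM1 value among those in all 6 replicates, members with no peak, those outside Hist1, testis variants, and the 3 with the largest antibody difference in each direction; in other lists the 2 highest, the 2 lowest and those without a peak. A few others, named for contrast, were chosen after their values were seen. The members and lists were chosen with earlier results of these data known. The software was Python 3.11.15, scipy 1.17.1 (tests), pandas 2.3.3 and numpy 2.4.6 (tables), with figures from matplotlib 3.10.9. Fragment depth limits detection, and no intervals were computed, since the lists hold no counts outside peaks.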

Additional observations from a re-analysis of the deposited data

How the results depend on the processing

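Promoter peak counts kept within 1.5 times of their value under every alternative, while replicate support depended on requiring the start itself to be covered: 25 genes then had all PBRM1 replicates, 33 all BRG1 replicates and 23 all 6, and 14 had no peak. No list had a peak at 3 genes within 2000 bp, and at 2 once members with over 50% repeated words were left out, an alternative chosen after seeing the data. Genes with PBRM1 higher numbered 3 within 500 bp, 0 with the start covered, 1 on fold enrichment itself and 4 with each peak counted once (also added after seeing the data); genes with BRG1 higher numbered 3 with the start covered. Leaving out 1 replicate gave 6 to 12 genes with BRG1 higher and 7 to 15 with PBRM1 higher; without PBRM1 replicate 1 they were 12 and 11, and without PBRM1 replicate 3 they were 6 and 15. Fewer replicates make non-overlap easier. For Hist1h4i the difference ran from 23.4 to 36.0 with p = 0.2 in exact permutation tests, the smallest allowed. Under the replicate block its sign-flip permutation gave a difference of 31.3 with p = 0.25, the smallest allowed. The labels tie same-numbered libraries by number only. Their deviations correlated at -0.031, -0.0059 and -0.0029 over 11128 genes. That cannot decide whether they shared cells, since with 3 replicates per antibody each deviation holds much noise. Ranking the genes with a peak in all 6 replicates against each other (added after seeing the data) gave 0 genes with BRG1 higher and 17 with PBRM1 higher, and 17.0 for Hist1h4i with p = 0.2 in an exact permutation test. Which direction held more genes also depended on the setting: those with BRG1 higher outnumbered those with PBRM1 higher within 500 bp (4 and 3), with the start covered (3 and 0), on fold enrichment itself (6 and 1), and without PBRM1 replicate 1 (12 and 11) or replicate 2 (9 and 7). Outside the main setting and the ranking of the same genes, shares over all genes were not computed. In the main setting 32.5% of 11128 genes had BRG1 higher and 3.69% had PBRM1 higher. The counts in the other settings therefore do not show how the histone genes differ from all genes. With RefSeq starts, 57 genes had a pooled PBRM1 peak and 59 a pooled BRG1 peak.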
